A study of Mus musculus with 17 samples.

Results

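Among 9 mouse mammary tumours labelled Squamous, 3 were poor in vimentin RNA and 6 were rich in it, and the mean RNA levels of collagen, matrix, fibroblast, endothelial and macrophage genes divided the tumours the same way. The tumours were separated by 1 measured value, the log2 level of the brightest of the 3 Vim probe sets, at a threshold of 12. Squamous 1, Squamous 2 and Squamous 6 lay below it and are called Vim-low here; Squamous 3, Squamous 4, Squamous 5, Squamous 7, Squamous 8 and Squamous 9 lay above it and are called Vim-high. No other histology entered, so 9 of the 17 tumours of the series were used. Because the sides were chosen by a value from the same arrays, every difference between them is given as a description, with no test and no p-value.

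All 17 tumours came from FVB mice and were induced by MMTV-Myc T58A, a Myc transgene carrying a stabilising mutation, in the form that the series calls low expressing; both sides share this transgene. The MMTV promoter drives a transgene mainly in mammary epithelium. Whether mesenchymal RNA in these tumours came from stromal cells or from tumour cells cannot be told apart in RNA from whole tumours. Age, treatment and tumour size were not given in the sources used here. Each tumour was measured once, on 1 Affymetrix array, and the deposited values are log2 signals per probe set. Squamous 7 and Squamous 8 carry the same title number, Squamous 5 shares its title number with the Microacinar tumour, and whether these came from 1 animal is not stated. Squamous 9 carries a different title format from the other 8, and its values were spread more widely, with an SD over probe sets of 2.46 against at most 2.28 in the others.

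Tumour stroma is the supporting tissue between nests of cancer cells. Fibroblasts make its collagens and glycoproteins, crosslink them and cut them again with metalloproteinases; endothelial cells and pericytes form its vessels; and macrophages and other leukocytes patrol it. Vimentin is the intermediate filament protein of these mesenchymal cells, fibronectin (Fn1) is an adhesive matrix glycoprotein, and Sparc is a collagen-binding matrix protein. RNA from a whole tumour pools epithelium and stroma, so fewer stromal cells and less RNA per stromal cell cannot be told apart.

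The Vim values that chose the members were 10.74 in Squamous 1, 11.36 in Squamous 2 and 11.86 in Squamous 6. Over the Vim-high tumours the same probe set ran from 12.62 to 13.28 with a median of 13.01. The tumour just inside the threshold was Squamous 6 at 11.86 and the one just outside was Squamous 3 at 12.62, a gap of 0.76. The other 2 Vim probe sets left wider gaps between the sides, of 1.34 and 1.08. Fn1 was 9.83, 11.16 and 11.05 in Squamous 1, 2 and 6 and ran from 12.13 through a median of 12.87 to 13.39 in the Vim-high tumours. The Fn1 difference, Vim-low mean minus Vim-high mean, was −2.17, a 4.49-fold lower signal. Sparc was 10.66, 11.23 and 12.23 against 12.46 to 13.43, a difference of −1.48. Besides the probe set that fixed the sides, the other 6 for Vim, Fn1 and Sparc also left them without overlap, and the 3 tumours with the lowest Fn1 or the lowest Sparc were the same 3. Fn1 and Sparc thus divided these tumours where Vim did, with the smallest gap, 0.22, at a Sparc probe set. They did not enter the rule, but they were measured on the same arrays and chosen with earlier results of these data known. Their order is therefore a description and no independent check.

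**Figure D1:**
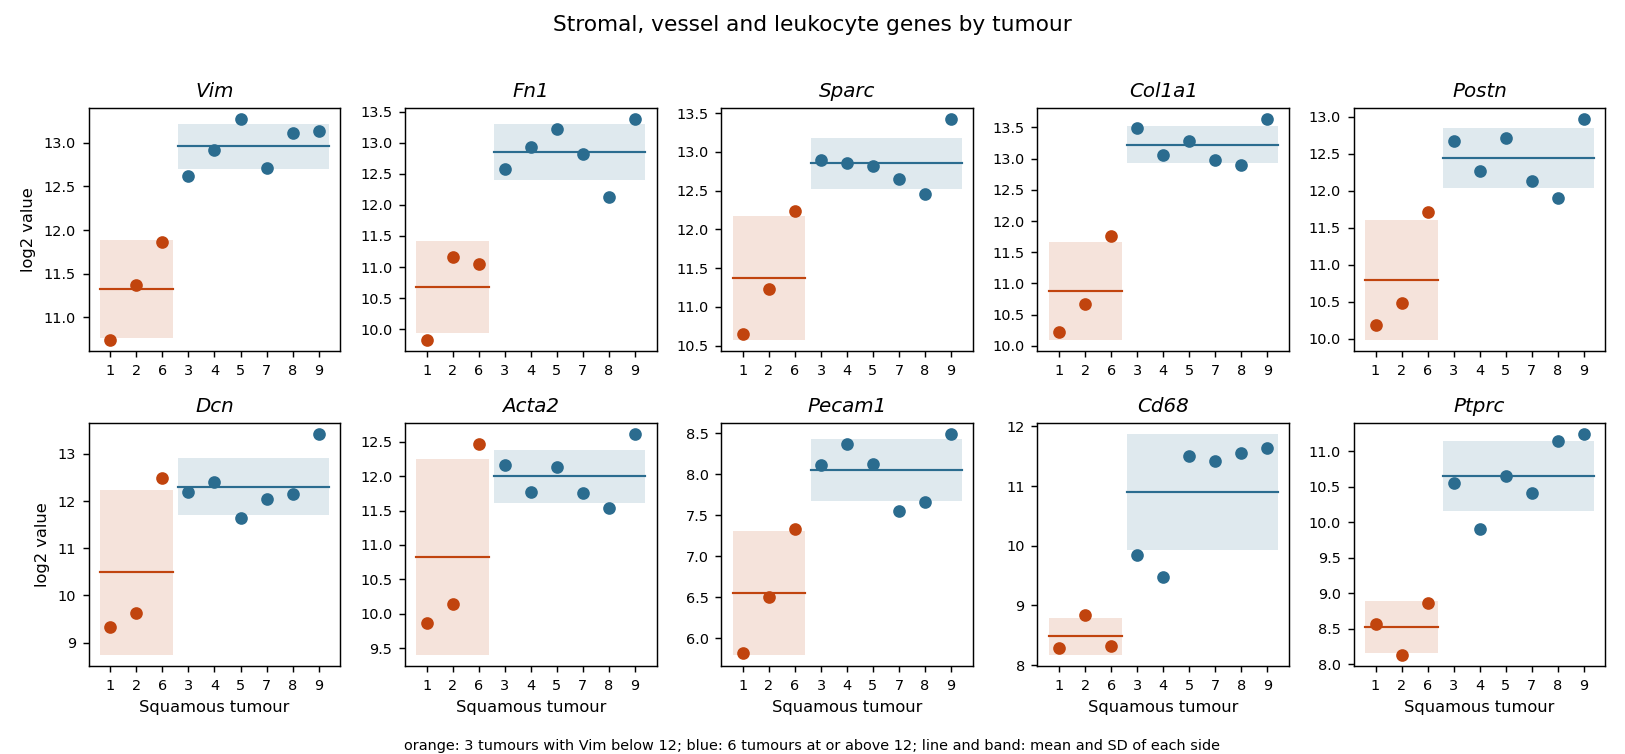
Log2 signal of named stromal, vessel and leukocyte genes in each of the 9 Squamous tumours; each point is 1 tumour, and lines and bands are the mean and SD of each side. Vim, Fn1 and Col1a1 separate the 3 Vim-low tumours from the 6 Vim-high tumours, whereas Dcn and Acta2 in Squamous 6 lie among the Vim-high values.

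The Squamous label was checked against keratinocyte genes. Krt6a, a keratin of stressed and squamous epithelium, ran from 9.04 to 14.03 over the 9 tumours, and Krt10, a keratin of differentiating epidermis, ran from 6.61 to 14.46. Krt10 was low in Squamous 8 at 6.61, in Squamous 2 at 7.81 and in Squamous 5 at 7.97, so low values occurred on both sides. Involucrin (Ivl), a late envelope protein, ran from 5.25 to 6.63, against array lower quartiles of 5.36 to 5.41 and medians of 7.23 to 7.36, and loricrin (Lor) ran from 6.11 to 11.71. The squamous programme was therefore uneven among tumours with the same label, and the involucrin signal was below the array medians in all 9.

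Over 12393 genes, 1076 (8.68% of all genes) had all 3 Vim-low values below all 6 Vim-high values, and 1132 (9.13%) had all 3 above. These counts were close, but the sizes were not: 556 genes (4.49%) were without overlap and lower by at least 1 on the log2 scale in the Vim-low tumours, and 109 (0.880%) were higher by at least 1. At a difference of at least 2 the counts were 113 lower and 9 higher. The median difference over all genes was 0.07. Without Squamous 6 the count of genes higher by at least 1 was 193, without Squamous 8 it was 191, and the count of lower genes was 770 without Squamous 6. Non-overlap is easier with fewer tumours. Without Squamous 6, 12.3% of all genes were lower without overlap and 16.5% higher. Without Squamous 8 these shares were 10.6% and 13.0%.

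Where these genes lay was described with 32 lists of cell types and pathways, of 8 to 30 measured genes each. Of 119 genes in the 6 stroma lists, 80 were lower without overlap and 1 was higher, with a median difference of −1.59. Of 39 vessel genes 22 were lower and none higher, and of 88 leukocyte genes 34 were lower and none higher, with medians of −0.92 and −0.90. Among 130 epithelial genes 14 were higher, a share near the 9.13% of all genes, and none was lower, with a median of 0.04. Fat, muscle and nerve genes gave 2 lower and 1 higher of 42, and genes of cell state gave 5 lower and 11 higher of 151. Ribosomal and housekeeping genes gave 2 lower and 1 higher of 28. In these last groups every share lay below that of all genes, 8.68% lower and 9.13% higher. The lower shares of stroma, vessel and leukocyte genes lay above it. Because Vim set the sides on these same arrays, these counts describe where the difference lay and show nothing about its cause.

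**Figure D2:**
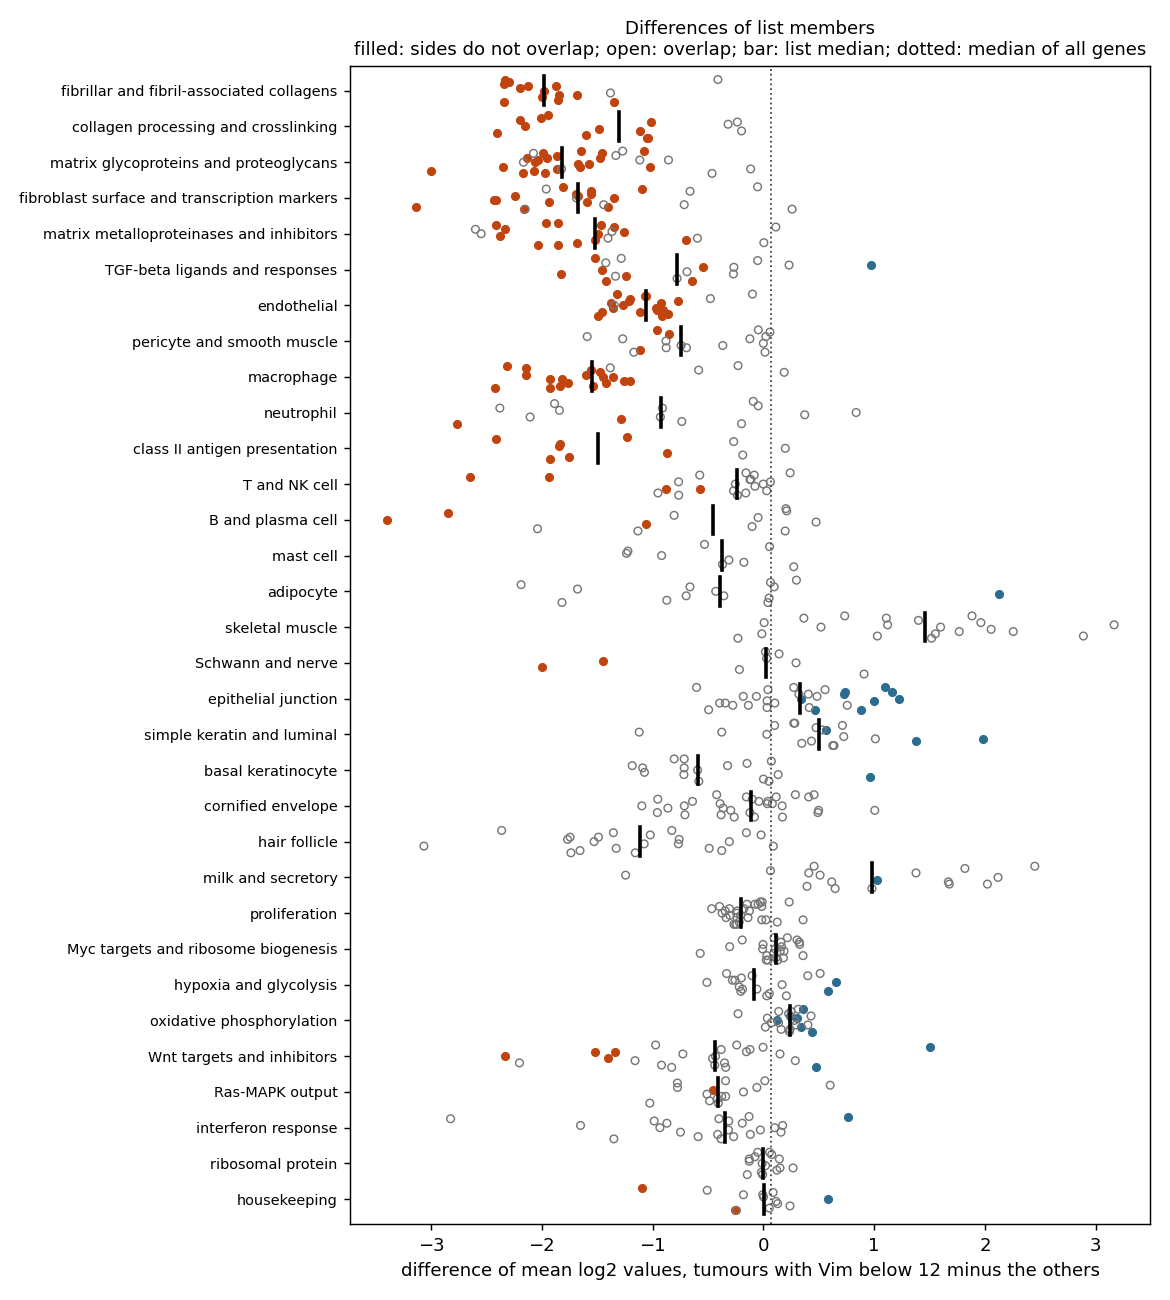
Difference of each measured list member, Vim-low mean minus Vim-high mean in log2 units, by list; each point is 1 gene, filled where the sides do not overlap, the bar is the list median and the dotted line the median of all genes. Collagens, matrix glycoproteins and fibroblast markers have medians of −1.98, −1.82 and −1.68, macrophage genes −1.55, and epithelial junction genes 0.33.

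Collagens gave the lowest list median. Of 15 measured collagen genes 13 were lower in all 3 Vim-low tumours than in every Vim-high tumour, with differences from −2.34 to −1.35, and the list median was −1.98. Col1a1, the main chain of fibrillar type I collagen, was 10.22 in Squamous 1, 10.68 in Squamous 2 and 11.75 in Squamous 6. In the Vim-high tumours Col1a1 ran from 12.90 to 13.64 with a median of 13.17, so even Squamous 6 was more than a log2 unit below the nearest of them. Its means were 10.88 ± 0.79 (SD, n = 3) and 13.23 ± 0.30 (SD, n = 6), a 5.07-fold difference, which was −1.68 in log2 units with the mean of its probe sets in place of the brighter one. Col1a2, its partner chain, was 10.34, 11.24 and 12.13 against 13.09 to 13.98, and Col3a1, the type III chain of loose tissue, was 10.83, 11.37 and 12.80 against 13.24 to 13.94. Each of these chains was lowest in Squamous 1 and closest to the Vim-high range in Squamous 6. The type V chains, which regulate fibril assembly, differed by −2.33 for Col5a1 and −2.19 for Col5a2, the network-forming Col8a1 by −2.34 and Col6a1, of beaded filaments, by −2.29. Only Col11a1 at −1.38 and Col16a1 at −0.41 overlapped between the sides, and Col16a1 in Squamous 6, at 10.25, lay within the Vim-high range.

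For Vim, Col1a2 and Cd68, the genes that stand here for the mesenchymal filament, the fibrillar matrix and the macrophage, the stretch of 150 bases before the transcription start in RefSeq (GRCm38.p6) is shown so that the sequence in front of each gene can be set beside its values. Capitals mark matches, searched on both strands, to TATAAA for the TATA box, to CCAAT for the CCAAT box, whose reverse reads ATTGG, and to TGAGTCA for the AP-1 site; none of these 3 motifs overlapped another.
Vim, chr2:13574161-13574310, plus strand: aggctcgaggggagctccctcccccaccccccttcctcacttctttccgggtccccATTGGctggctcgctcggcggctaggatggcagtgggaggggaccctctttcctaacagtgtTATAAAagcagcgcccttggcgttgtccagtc
Col1a2, chr6:4505468-4505617, plus strand: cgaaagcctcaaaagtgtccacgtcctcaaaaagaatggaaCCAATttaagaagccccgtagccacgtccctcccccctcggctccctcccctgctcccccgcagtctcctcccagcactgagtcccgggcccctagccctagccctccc
Cd68, chr11:69666171-69666320, minus strand: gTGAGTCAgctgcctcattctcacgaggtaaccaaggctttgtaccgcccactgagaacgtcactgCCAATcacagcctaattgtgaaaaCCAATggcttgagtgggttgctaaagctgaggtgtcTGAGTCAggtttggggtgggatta
Vim held TATAAA from 32 to 27 bases before the start and a reversed CCAAT from 94 to 90 before it, Col1a2 held CCAAT from 109 to 105, and Cd68 held CCAAT from 84 to 80 and from 60 to 56 and TGAGTCA from 149 to 143 and from 24 to 18. Over the 511 windows of 413 genes lower by at least 1, TATAAA occurred in 9.20%, CCAAT in 17.8% and TGAGTCA in 3.72%. The same shares were 5.52%, 26.3% and 2.67% over the 12566 windows of all measured genes, 7.57%, 24.5% and 2.84% over all 32851 windows in the table, and 4.46%, 26.8% and 2.68% over the 112 windows of genes higher by at least 1. A match is a run of letters in this window and is no measure of binding.

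Enzymes and chaperones that finish collagen were lower with their substrates. Of 14 measured genes 11 were lower without overlap, with differences from −2.40 to −1.02 and a list median of −1.30. Lox, the oxidase that crosslinks collagen and elastin, was 7.34, 8.32 and 9.16 in Squamous 1, 2 and 6 against 9.88, 10.84 and 11.15 for the lowest, median and highest Vim-high tumour, a difference of −2.40, or −1.53 with the mean of its probe sets. Its relatives Loxl3 and Loxl1 were 4.44-fold and 4.01-fold lower, the procollagen-processing enhancer Pcolce 4.60-fold and the lysyl hydroxylase Plod2 3.86-fold. Serpinh1, the collagen chaperone of the endoplasmic reticulum, was 9.05, 9.46 and 9.94 and lay in a narrow band of 10.97 to 11.18 in the Vim-high tumours. The 3 overlapping members, P4ha2, Plod3 and Tgm2, differed by −0.24, −0.32 and −0.20. These enzymes also occur in epithelial cells, and whether this bears on their overlap was not tested.

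Matrix glycoproteins and proteoglycans gave 20 of 29 genes lower without overlap and a list median of −1.82, with all 29 differences below 0. Fibromodulin (Fmod), which binds collagen fibrils, was 6.31, 7.24 and 8.60 against 9.79, 10.33 and 11.02, an 8.03-fold lower signal. Tenascin C (Tnc), a glycoprotein of remodelling stroma, was 8.63, 8.60 and 9.32 against 10.39, 11.21 and 12.12, so its 3 Vim-low values lay close together. Periostin (Postn) was 10.18, 10.49 and 11.72 against 11.90 to 12.98, with Squamous 6 just below the lowest Vim-high value. The fibre-associated glycoproteins Emilin1 and Fbln1 and the proteoglycan biglycan (Bgn) differed by −2.13, −2.07 and −2.06, with Emilin1 at −1.37 over the mean of its probe sets. Decorin (Dcn), a small proteoglycan of resting and tumour fibroblasts, departed from this order: it was 9.34 and 9.62 in Squamous 1 and 2 but 12.50 in Squamous 6, inside the Vim-high range of 11.64 to 13.43. Lumican (Lum) did likewise, at 6.90, 7.83 and 9.44 against a Vim-high minimum of 8.95 and median of 10.13, and elastin (Eln) was 9.51 in Squamous 6, the highest of the 9 tumours. Thus some matrix genes of Squamous 6 were at Vim-high levels, whereas 14 of its 15 collagens were below every Vim-high tumour; without Squamous 1 the list median was −1.34 and without Squamous 6 it was −2.11.

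Fibroblast surface proteins and transcription factors gave 15 of 23 genes lower without overlap and a median of −1.68. Cadherin 11 (Cdh11), the adhesion molecule of mesenchymal cells, was 6.24, 7.28 and 8.76 against 10.20, 10.58 and 10.90. Its difference of −3.14, an 8.81-fold lower signal, was the largest of any gene in the stroma lists, and Squamous 6 was again the nearest to the Vim-high tumours. The adhesion receptor Vcam1 and the mesenchymal homeobox gene Prrx1 differed by −2.43 and −2.41, or −1.33 and −1.54 with the mean of their probe sets. Other mesenchymal proteins followed, with the calcium-binding protein S100a4 differing by −2.24, podoplanin (Pdpn) by −2.16 and Thy1 by −1.94. Fibroblast activation protein (Fap) was 6.61, 6.89 and 7.76 against 8.48 to 9.52. Both PDGF receptors were low in Squamous 1 and 2: Pdgfrb was 8.38 and 8.79, with Squamous 6 at 9.82 and the Vim-high tumours from 10.27 to 11.26. Pdgfra was 6.85 and 6.87 in Squamous 1 and 2, but its 9.40 in Squamous 6 lay above the Vim-high minimum of 9.31. Tcf21 and Osr1, transcription factors of fibroblast progenitors, differed by 0.26 and −0.05. Tcf21 was 5.39 to 5.80 in 8 of the tumours, on both sides, and 3.84 in Squamous 9, whose low value set its Vim-high mean.

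Proteases that cut the matrix and their inhibitors were lower together, in 14 of 21 genes, with a median of −1.52. Mmp2, a gelatinase of fibroblasts, was 7.99, 8.30 and 10.22 against 10.62, 10.81 and 11.20, a difference of −2.03. Its inhibitor Timp1 was 7.83 in Squamous 1 and at most 9.13 in the other Vim-low tumours against 10.53, 10.85 and 11.69, a difference of −2.33, and Timp3 differed by −1.86. Mmp12, the elastase of macrophages, was 9.58, 10.68 and 10.37 against 11.12 to 13.54, and Mmp9 and Mmp19 differed by −1.97 and −2.38. Mmp12 was lowest among the Vim-high tumours in Squamous 4 (11.12) and Squamous 3 (11.74), the tumours in which macrophage genes were also lowest on that side. Stromelysin (Mmp3) was 7.10 and 7.25 in Squamous 1 and 2 and 10.61 in Squamous 6, inside the Vim-high range of 10.18 to 11.85.

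TGF-beta ligands, receptors and response genes gave a smaller share, 7 of 17 lower and 1 higher without overlap, with a median of −0.78. Tgfb1, the main ligand, was 8.42, 7.86 and 8.43 against 9.38, 9.68 and 9.90, a difference of −1.42, and its receptor Tgfbr2 differed by −1.24, or −0.56 with the mean of its probe sets. Among response genes the matrix proteins Ccn2 and Tgfbi differed by −1.46 and −1.52, and the ligand Gdf10 by −1.82. Tgfb2 went the other way, at 9.69, 9.57 and 8.89 against 7.58 to 8.85, a difference of 0.97, with Squamous 6 only just above the highest Vim-high tumour. The 2 ligands thus stood in opposite order on the sides. The list median was −0.99 as a difference of group medians and −0.98 without Squamous 8.

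Genes outside the lists with the largest differences included further stromal products. Among non-overlapping genes above the median gene level, the 12 lowest included Penk, the proenkephalin precursor. Penk was 5.71, 6.06 and 7.68 against 8.63, 10.06 and 10.64. Cathepsin K (Ctsk), a collagen-degrading protease, was 6.87, 7.65 and 9.05 against 9.98, 10.97 and 12.50, and apolipoprotein D (Apod) differed by −2.90. The chemokine Cxcl12, made by fibroblasts, was 6.16 and 6.79 in Squamous 1 and 2, 9.31 in Squamous 6 and 9.70 to 10.79 in the Vim-high tumours. Cxcl13, a B cell attractant, differed by −3.18, or −1.99 with the mean of its probe sets, and Gpnmb, a glycoprotein of lipid-laden macrophages, by −3.01. Immunoglobulin genes made up part of the rest of these 12 and are given with the B cell genes.

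Endothelial genes were lower in nearly their whole list, 19 of 22 without overlap, but by less than the matrix, with a median of −1.06. Pecam1, the junction molecule of endothelium, was 5.82, 6.50 and 7.34 against 7.55, 8.11 and 8.49, a difference of −1.49. Plvap, of fenestrated endothelium, differed by −1.45, the angiopoietin receptor Tek by −1.38, vascular cadherin (Cdh5) by −1.21 and the VEGF receptor Kdr by −0.91. Flt1, the other VEGF receptor, was among the 3 that overlapped, at −0.10. Squamous 6 was the nearest to the Vim-high side, with a median endothelial deviation of −0.55 from the Vim-high mean, against −1.37 in Squamous 1 and −1.15 in Squamous 2.

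Pericyte and smooth muscle genes did not divide in the same way, with 3 of 17 lower without overlap (17.6%, beside 8.68% of all genes). Their median was −0.74. The 3 were the pericyte genes Rgs5 and Cspg4, at −1.12 and −0.86, and caldesmon (Cald1) at −0.96. Smooth muscle actin (Acta2), found in activated fibroblasts, pericytes, smooth muscle and myoepithelium, was 9.87 and 10.15 in Squamous 1 and 2 and 12.47 in Squamous 6, against 11.54, 11.96 and 12.62. Myh11, the myosin of smooth muscle, was 4.96 and 5.17 in Squamous 1 and 2, and its 8.20 in Squamous 6 was the highest of all 9 tumours. Squamous 1 and Squamous 2 were each below every Vim-high tumour in 12 of the 17 genes and Squamous 6 in 3. Without Squamous 6, 10 were lower (58.8%, beside 12.3% of all genes). Contractile genes therefore put Squamous 6 with the Vim-high tumours.

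Macrophage genes were lower in 18 of 22 cases without overlap, with a median of −1.55, close to that of the stroma lists. Cd68, a lysosomal protein of macrophages, was 8.29, 8.84 and 8.31 in Squamous 1, 2 and 6. In the Vim-high tumours Cd68 was 9.84 in Squamous 3, 9.48 in Squamous 4 and 11.42 to 11.64 in the other 4, a split within that side that was larger than the gap between the sides. The Cd68 means were 8.48 ± 0.31 (SD, n = 3) and 10.90 ± 0.98 (SD, n = 6), a 5.36-fold difference. Csf1r, the receptor on which macrophages depend, was 10.41, 10.41 and 10.85 against a narrow range of 11.87 to 12.29. Fcgr3, an Fc receptor, and Tyrobp, a signalling adaptor of myeloid receptors, differed by −2.31 and −2.15, and Ptprc, the CD45 antigen of all leukocytes, was 8.57, 8.13 and 8.86 against 9.90, 10.60 and 11.25. In contrast to the matrix genes, Squamous 6 was no closer than the others by much: median macrophage deviations were −1.72, −1.60 and −1.43 in Squamous 1, 2 and 6. Cd14, Marco, Cd163 and Arg1 overlapped, with differences of −0.23, 0.19, −1.38 and −0.58.

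Antigen presentation by MHC class II followed, with 7 of 10 genes lower and a median of −1.49. H2-Aa, a class II chain, was 9.73 and 9.65 in Squamous 1 and 2, 11.10 in Squamous 6 and 11.63 to 13.11 in the Vim-high tumours. The invariant chain Cd74 differed by −1.85 and the dendritic cell and macrophage integrin Itgax by −2.42. Class II was highest in Squamous 8, with a list mean of 9.57 against at most 8.82 elsewhere.

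Lymphocyte genes were mostly near the low end of the scale, and their sides were set apart by few members. Of 21 T and NK cell genes 4 were lower without overlap (19.0%, beside 8.68% of all genes), and the list median was −0.23. Among the 4 was Thy1, which is also a fibroblast gene. Il7r, the interleukin 7 receptor, differed by −2.65, while the T cell receptor subunit Cd3g differed by −0.88 and reached 7.31 in Squamous 8 against 5.49 or less in every other tumour; without Squamous 8 its difference was −0.54. Cd3e, another T cell receptor subunit, was 6.71 to 6.76 in all tumours but Squamous 8, where it was 7.53. Among these 2 subunits Squamous 8 alone stood out. Without Squamous 1, 8 T and NK cell genes were lower (38.1%, beside 9.65% of all genes). Of 12 B and plasma cell genes 3 were lower (25%), or 5 without Squamous 4 (41.7%, beside 9.80% of all genes). The list median was −0.45, but the plasma cell genes gave some of the widest differences. Jchain, which links secreted antibodies, was 8.51, 6.26 and 6.95 against 9.23, 10.52 and 13.47, a 10.6-fold lower signal, and the coactivator Pou2af1 differed by −2.84. Igha and Igkv8-30, immunoglobulin chain genes outside the lists, differed by −2.95 and −3.42 and were highest in Squamous 8, at 14.43 and 14.24. Immunoglobulin probe sets can bind related chains, so the chain that Igkv8-30 names is uncertain. Only 3 T and NK genes, Thy1 among them, and 3 B and plasma genes lay above the median level. Their medians were −1.94, the value of Thy1, and −2.04.

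Neutrophil genes overlapped more, with 2 of 14 lower (14.3%, beside 8.68% of all genes) and a median of −0.92. Without Squamous 6, 6 were lower (42.9%, beside 12.3%). Clec4d, a lectin receptor of myeloid cells, differed by −2.76 and the granule peptide gene Camp by −1.29. Camp was 5.38 to 5.58 in the Vim-low tumours and 5.68 to 6.25 in 4 Vim-high tumours, with 8.92 in Squamous 8 and 8.24 in Squamous 9, so its side mean was raised by those 2 and the difference of group medians was −0.50. S100a8, a calcium-binding protein of neutrophils and of squamous epithelium, overlapped, with 12.60 to 13.16 against 12.26 to 14.13. No mast cell gene of 9 was without overlap, and that list's median was −0.37, or −0.61 without Squamous 9. The lead gene Cma1, a mast cell chymase, was 5.51, 5.53 and 6.89 against 5.62 to 8.15.

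**Figure D3:**
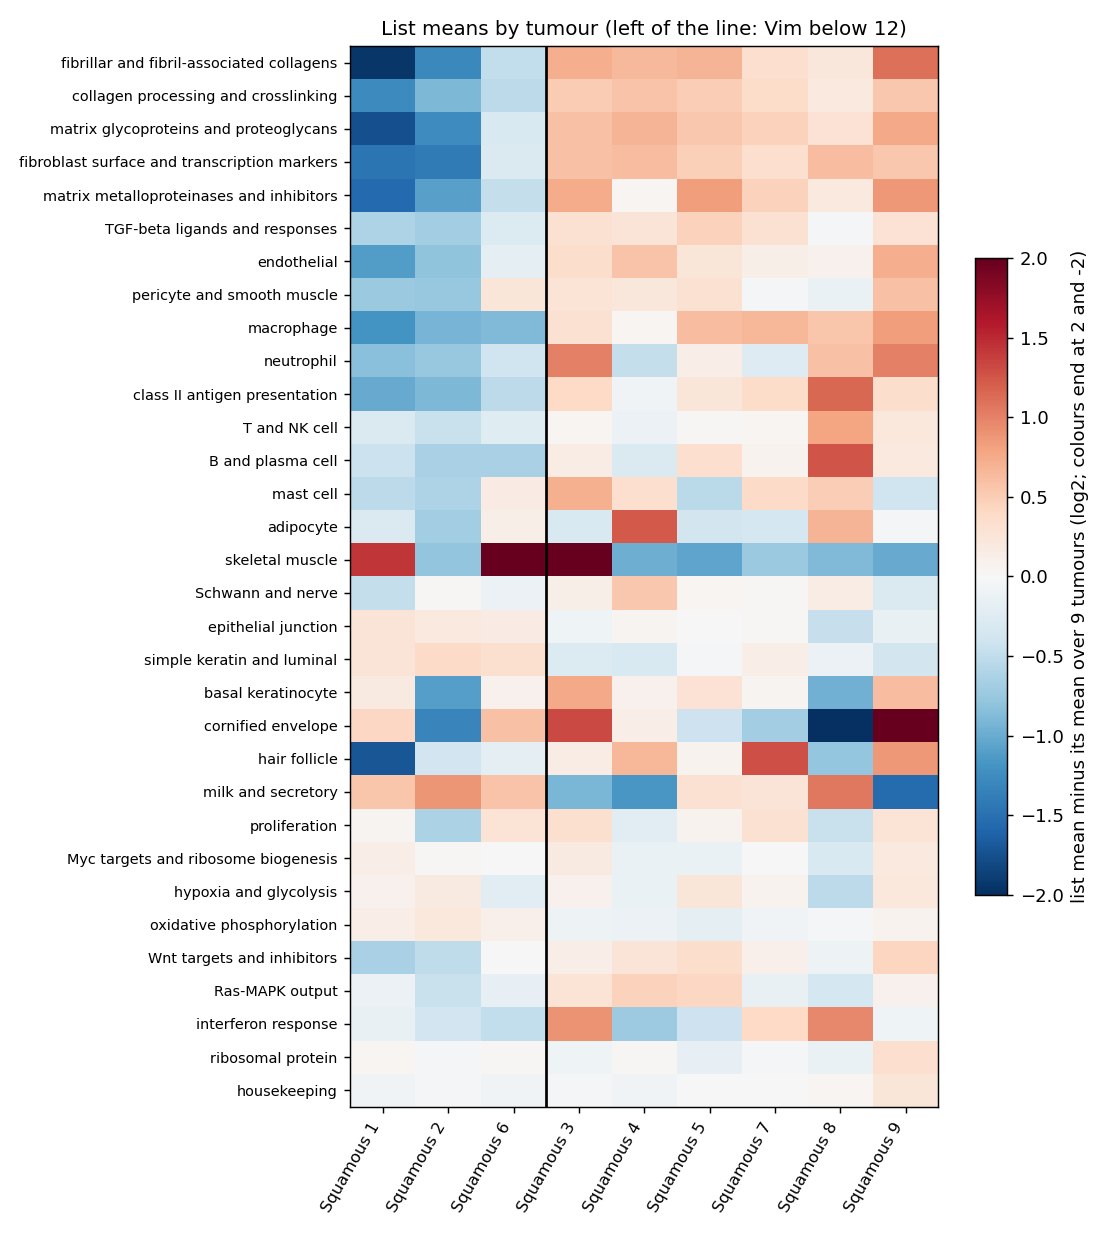
Mean log2 signal of list members in each of the 9 Squamous tumours for the 32 lists; each row is 1 list, each column 1 tumour, and colour shows the deviation from the list's mean over the 9 tumours, with colours ending at 2 and −2. Collagen means were 8.36 to 9.81 in the Vim-low tumours and 10.53 to 11.41 in the Vim-high tumours, and skeletal muscle genes were high in Squamous 1, Squamous 3 and Squamous 6.

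Fat, muscle and nerve, which a dissected mammary tumour can carry along, did not follow the Vim order. The adipocyte list mean was 6.99 to 7.81 in the Vim-low tumours and 7.32 to 8.91 in the Vim-high tumours, highest in Squamous 4 at 8.91 and Squamous 8 at 8.37. Adiponectin (Adipoq), a hormone of fat cells, was 10.88 in Squamous 4, 9.34 in Squamous 8 and 4.14 to 6.97 in the other 7. Thrsp, which the adipocyte list holds but which secretory mammary epithelium also expresses, was the single member without overlap and was higher, by 2.13. Its share of the list, 7.14%, lay below the 9.13% of all genes. The skeletal muscle list mean was 7.66 in Squamous 1, 8.25 in Squamous 6 and 8.22 in Squamous 3, and 5.17 to 5.49 in the other 6. Acta1, skeletal muscle actin, was 10.77, 11.59 and 12.19 in those 3 tumours and 6.43 to 7.04 elsewhere, and Myh4, a fast muscle myosin, differed by 3.17 with overlap. Without Squamous 3, 5 of the 20 muscle genes were higher without overlap (25%, beside 10.6% of all genes). Muscle RNA was thus high in 2 of 3 Vim-low tumours and 1 of 6 Vim-high tumours, and its part in the other differences was not tested. Of 8 Schwann and nerve genes 2 were lower without overlap (25%, beside 8.68% of all genes), the myelin gene Pmp22 and the adhesion molecule Ncam1. Pmp22 was lower by 3.99-fold, and Ncam1 had a log2 difference of −1.45, or −0.63 over the mean of its probe sets. The median of these 8 genes was 0.02, and their list mean overlapped, at 8.14 to 8.65 against 8.34 to 9.16.

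Epithelial junction genes were on balance slightly higher in the Vim-low tumours. Of 28 genes 9 were higher without overlap (32.1%, beside 9.13% of all genes) and none was lower, with a median of 0.33. Without Squamous 8, 3 were lower (10.7%, near the 10.6% of all genes). The list mean was 9.78 to 9.86 in the Vim-low tumours and 9.15, 9.57 and 9.66 at the lowest, median and highest Vim-high tumour, so these means did not overlap. E-cadherin (Cdh1) was 11.97, 11.88 and 11.85 against 11.13, 11.38 and 11.81, a difference of 0.47 with the nearest tumours almost touching. The tight junction genes differed more, with occludin (Ocln) at 1.22, the scaffold Tjp3 at 1.16 and claudin 3 (Cldn3) at 1.10. Ocln was 5.28 in Squamous 9 against 6.78 or more in every other tumour. Epcam, an epithelial adhesion molecule, was 11.92, 11.99 and 12.05 against 11.19 to 12.04 and overlapped.

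Simple keratins and luminal genes gave 3 of 18 higher (16.7%, beside 9.13% of all genes) and a median of 0.50. Without Squamous 2 or without Squamous 8, 5 were higher (27.8%, beside 11.9% and 13.0% of all genes). Elf5, the transcription factor of alveolar luminal cells, was 12.67, 13.21 and 12.80 against 10.94, 11.39 and 12.30, a difference of 1.37. The mucin Muc1 was 9.64, 9.63 and 8.92 against 5.88, 7.64 and 8.74, a difference of 1.98. Cd24a, a surface antigen of luminal cells, differed by 0.57. Krt8 and Krt18, the keratin pair of simple epithelium, differed by 0.63 and 0.53, and in both the sides overlapped. Every Vim-low tumour therefore held more Elf5 and Muc1 RNA than any Vim-high tumour, but not more of the luminal keratins.

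The 12 genes with the largest higher differences, among non-overlapping genes above the median gene level, included none of the milk and secretory list. Differences in that list reached 2.45, but in a gene whose sides overlapped. Pigr, the receptor that carries antibodies into milk, was 11.69, 10.98 and 12.17 against 6.96, 9.15 and 10.74, a 6.16-fold higher signal. The acute-phase gene Saa1 was 13.48, 12.78 and 13.10 against 8.06, 10.51 and 12.67, and Saa2 differed by 2.45. Saa1 and Saa2 are near-identical copies, so which of them the probe sets measured is uncertain. The gap junction gene Gjb6 was 11.96, 12.21 and 12.31 against 7.53, 9.24 and 10.86, a difference of 2.78, the largest of the 12 highest. Thrsp, a lipogenic gene, was 12.56, 13.51 and 12.56 against 8.72, 10.78 and 11.94, and the folate receptor Folr1, the peroxisomal enzyme Ehhadh, Kctd14, Rhpn2 and Rprm differed by 2.20, 2.30, 2.25, 2.14 and 1.97. Cd320, the cellular receptor for transcobalamin, differed by 1.95, or 1.26 with the mean of its probe sets. In several of these genes Squamous 9 was the lowest tumour and Squamous 8 the highest on the Vim-high side.

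Milk genes themselves overlapped. In the list of 17 milk and secretory genes Plin2, which coats lipid droplets, was the only one higher without overlap, by 1.02. That is 5.88%, below the 9.13% of all genes, and the list median was 0.98. The list mean was 12.04 to 12.38 in the Vim-low tumours and 9.96, 11.17 and 12.54 in the Vim-high tumours, with Squamous 8 the highest of all 9. Without Squamous 8, 11 of the 17 genes were higher without overlap (64.7%, beside 13.0% of all genes). Whey acidic protein (Wap) was 13.41, 14.03 and 14.02 against 9.26 to 14.12, high in Squamous 8, 5 and 7 and low in Squamous 9 and 3.

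**Figure D4:**
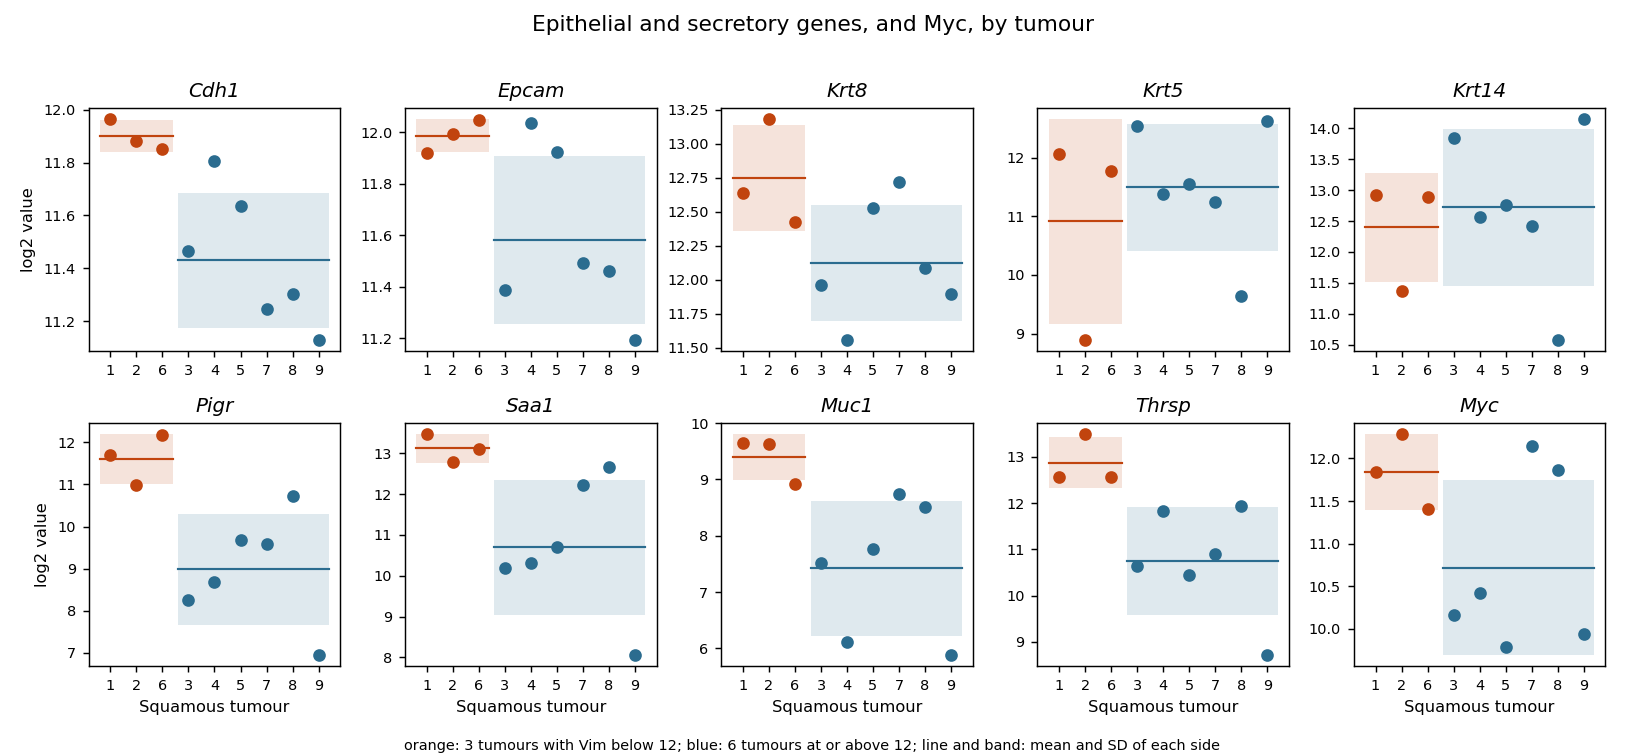
Log2 signal of named epithelial genes in each of the 9 Squamous tumours; each point is 1 tumour, and lines and bands are the mean and SD of each side. Pigr and Muc1 are higher in all 3 Vim-low tumours, Cdh1 nearly touches at 11.85 and 11.81, and Krt5 and Myc overlap between the sides.

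Squamous differentiation did not follow the Vim split. Of 16 basal keratinocyte genes 1 was higher without overlap (6.25%, below the 9.13% of all genes), the laminin receptor subunit Itga6 at 0.97. None was lower, and the median of −0.59 was −0.03 without Squamous 2. Krt5, the basal keratin, was 12.06, 8.89 and 11.78 in Squamous 1, 2 and 6 against 9.64, 11.46 and 12.62, so Squamous 2 was the lowest and Squamous 8 the next. Krt14, its partner, was 11.38 to 12.92 against 10.58 to 14.16. None of 30 cornified envelope genes was without overlap; the list mean was 7.24 to 9.14, against a Vim-high median of 8.42 and a maximum of 11.09, lowest of all in Squamous 8 and highest in Squamous 9. Its median was −0.11, and 0.41 without Squamous 2. Hair follicle genes overlapped in all 22 cases, but 21 of the differences were below 0 and 13 were −1 or lower. Their median of −1.12 was −0.62 without Squamous 1. Without Squamous 2, 6 were lower (27.3%, beside 10.4% of all genes), and without Squamous 6, 5 were lower (22.7%, beside 12.3%). Krt25, a keratin of the inner root sheath, was 5.70, 7.94 and 12.54 against 8.62, 12.13 and 13.76, and Squamous 1 was below every Vim-high tumour in 17 of the 22 genes. The 3 Vim-low tumours thus differed widely from each other in keratins.

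Cell cycle and growth genes gave no list that set the sides apart by much. None of 29 proliferation genes was without overlap, and Mki67, a mark of cycling cells, was 10.47, 9.36 and 10.77 against 10.05 to 10.72, low only in Squamous 2. In that list 25 of 29 differences were below 0. Its median of −0.21 was 0.09 without Squamous 2, which lay below every Vim-high tumour in 22 of the 29 genes. Myc, whose transgene induced the tumours, was 11.84, 12.29 and 11.40 against 9.79, 10.29 and 12.15. The Vim-low values were all high, but Squamous 7 at 12.15 and Squamous 8 at 11.87 lay among them, so the sides overlapped. Of 23 Myc target genes none was without overlap, and the median was 0.11.

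Of 22 mitochondrial respiratory chain genes 6 were higher without overlap in the Vim-low tumours (27.3%, beside 9.13% of all genes). Each of these differed by less than 0.5, and the list median was 0.24. Without Squamous 8 or without Squamous 9, 10 were higher (45.5%, beside 13.0% and 12.5% of all genes). After quantile normalization 11 were higher (50%, beside 10.04% of all genes). Uqcrc2, a subunit of the cytochrome c reductase, was 11.67, 11.50 and 11.29 against 10.88 to 11.19, and Cox4i1, of cytochrome oxidase, differed by 0.36. The list mean, 11.46 to 11.57 against 11.17 to 11.43, was without overlap. Hypoxia and glycolysis genes gave 2 of 18 higher, Ndrg1 at 0.65 and Pfkl at 0.58, a share of 11.1%, near the 9.13% of all genes. Their median was −0.08, which was 0.05 without Squamous 6. Interferon response genes had a median of −0.35, or −0.18 without Squamous 8, with 18 of 22 differences below 0, and Ras-MAPK output genes one of −0.41, or −0.25 without Squamous 2, with 13 of 15 below 0. A single member of each was without overlap, Ifi35 at 0.77 and Spred1 at −0.45, shares below those of all genes, and neither list had one after quantile normalization or subtraction of array medians.

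Wnt targets and inhibitors had a median of −0.44, with 20 of 24 differences below 0. Without overlap 4 were lower (16.7%, beside 8.68% of all genes) and 2 higher (8.33%, beside 9.13%). Dkk2 and Ccn4 had the largest differences of the 4 lower genes. The secreted inhibitor Dkk2 was 4.88, 4.85 and 5.61 against 6.10 to 9.53, a difference of −2.33, and Ccn4, a secreted matrix protein, differed by −1.52. The 2 higher genes were Rnf43 and Axin2. Rnf43, a ligase that removes Wnt receptors, was 9.12, 9.56 and 9.01 against 7.30 to 8.11, and Axin2, a scaffold of the destruction complex, differed by 0.48. Without Squamous 6, 12 were lower (50%, beside 12.3% of all genes).

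The 3 Vim-low tumours were not alike. Of the 556 genes lower by at least 1, Squamous 1 had the lowest value in 347, Squamous 2 in 178 and Squamous 6 in 31. In 770 genes Squamous 1 and Squamous 2 lay below every Vim-high tumour and their mean was lower by at least 1, and in 166 of these Squamous 6 did not. The median collagen deviation from the Vim-high mean was −2.71 in Squamous 1, −2.12 in Squamous 2 and −1.21 in Squamous 6; for matrix glycoproteins it was −2.42, −1.91 and −0.75. Macrophage deviations, in contrast, lay close together, at −1.72, −1.60 and −1.43. Squamous 6 was therefore intermediate for matrix and endothelial genes, near the Vim-high tumours for contractile genes and low like the others for macrophages.

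**Figure D5:**
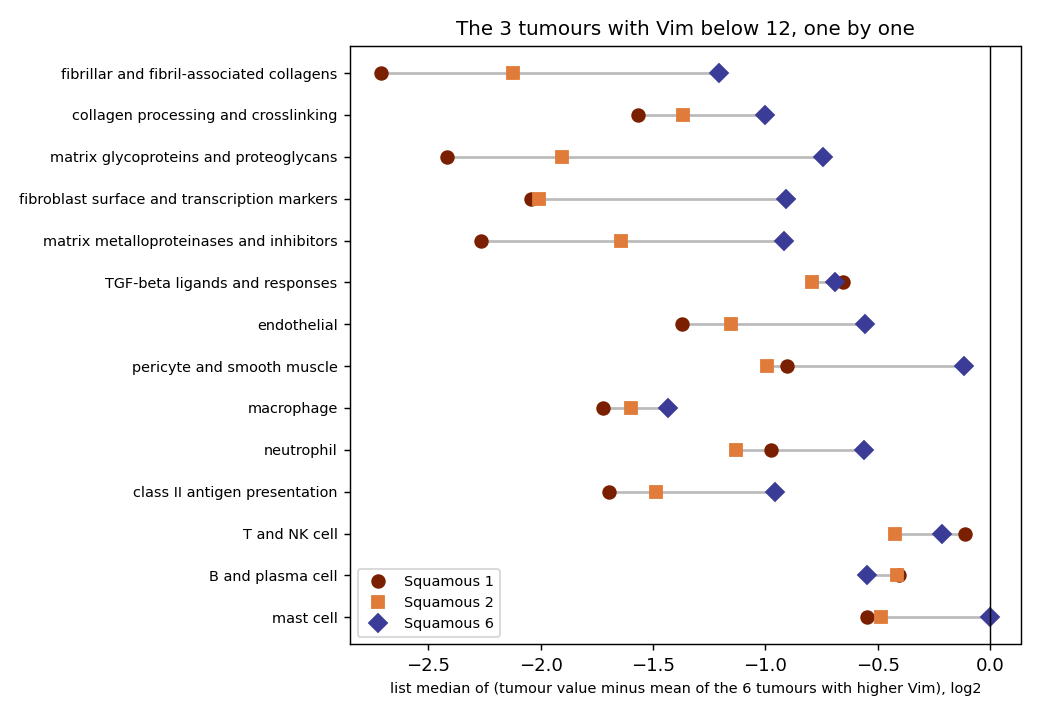
Median over list members of the log2 value of each Vim-low tumour minus the mean of the 6 Vim-high tumours, by list; each point is 1 tumour. Collagen genes deviate by −2.71, −2.12 and −1.21 in Squamous 1, 2 and 6, pericyte and smooth muscle genes by −0.90, −0.99 and −0.12, and macrophage genes by −1.72, −1.60 and −1.43.

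The Vim-high tumours also differed among themselves. Their list means lay close together for collagen processing, from 9.33 to 9.71, and for fibroblast markers, from 8.29 to 8.56, and ran from 10.53 to 11.41 for collagens. Macrophage means ran from 10.08 in Squamous 4 to 10.87 in Squamous 9, and Squamous 8 was highest for class II, T cell and B cell genes. Within the side, fibroblast markers were therefore the most even of these lists.

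Measures of RNA and array quality were set beside these differences. The 3′ minus 5′ signal of the beta-actin control probe sets, which grows as RNA is degraded, was 0.83 to 0.96 in the Vim-low tumours and 0.62, 0.72 and 0.89 at the lowest, median and highest Vim-high tumour; the same measure for Gapdh was 0.16 to 0.31 against −0.02 to 0.38. Array medians were 7.23 to 7.31 against 7.30 to 7.36. Among the Vim-high tumours only Squamous 9, at 0.89, reached the Vim-low range of the actin measure, and the others were 0.62 to 0.76. Apart from Squamous 9 this measure therefore divided the tumours as Vim did. The 3′ actin control signal itself was 14.02 to 14.05 in the Vim-low tumours against 14.17 to 14.55, without overlap. The part of RNA quality in the differences was not tested. Ribosomal protein genes had a median difference of −0.01 and housekeeping genes one of 0.00. Actb, the beta-actin gene used as a reference, was 14.00, 13.93 and 14.02 against 14.12 to 14.40, but its difference of −0.26 was 0.16 with the mean of its probe sets; B2m, the light chain of MHC class I, differed by −1.10 and the transferrin receptor Tfrc by 0.58.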

How the data were processed

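RNA from 17 mammary tumours was hybridised to Affymetrix arrays, 1 array per tumour, and the 9 labelled Squamous were used. The deposited values, per the file headers, are log2 signals per probe set (22690 probe sets, 64 of them controls, no missing value); the normalization and software were not given in the sources used here, and depth does not apply to arrays, whose number limits the precision. Probe sets were named through the platform annotation, with symbols updated to RefSeq (GRCm38.p6): 20380 had 1 symbol, 691 several and 1555 none, and 20351 were matched by gene identifier. Each of 12393 genes was represented by its brightest probe set, judged by the mean of the 9 tumours. Levels are not compared between genes, except where a signal is set against the array quartiles and medians, the low end of the scale or the median gene level. Such a placing ranks signals and is no measure of RNA amount.

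Sides were set by Vim, and a gene was counted where all 3 Vim-low values lay below, or above, all 6 Vim-high values, with a difference of means of at least 1 for the narrower count; folds are 2 raised to the difference. The members and the lists were chosen with earlier results of these data known. The counting was tested on simulated data in which each gene's spread was capped and the Vim-low tumours were shifted equally. This checks the counting itself and not how it behaves at the spread of these tumours. Genes were named by rule: a fixed list, up to 6 non-overlapping members of each stroma list and 3 of each other list with the largest differences, and the 12 lowest and 12 highest non-overlapping genes above the median level. Cell type markers were fixed too. Eln, Mmp3, Wap, Axin2, Tcf21, Osr1, Flt1, P4ha2, Plod3, Tgm2, Col11a1, Col16a1, Cd14, Marco, Cd163 and Arg1 were chosen after their values were seen.

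Alternatives were quantile normalization, subtraction of array medians, the mean of a gene's probe sets, every probe set, genes above the median level, each tumour left out, the 2 tumours of 1 title number averaged, group medians, other minimum differences, and sides set by all Vim probe sets, Fn1 or Sparc. Python 3.11.15, pandas 2.3.3, numpy 2.4.6, scipy 1.17.1 and matplotlib 3.10.9 were used.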

Additional observations from a re-analysis of the deposited data

Results flagged for a closer look

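Of 153 values examined, the 9 tumours' levels of the named genes and list means, 5 had 1 tumour standing apart from the other 8 by more than Dixon's 95% critical value allows; chance alone marks about 1 in 20. The mean of the ribosomal protein genes was 13.52 in Squamous 9, with the next tumour at 13.23, and the housekeeping mean was 11.68 in Squamous 9, with the next at 11.47. Itga6 was 9.95 in Squamous 9, the lowest, with the next at 11.30, and Krt2, a keratin of differentiating epidermis, was 7.50 in the same tumour, with the next at 5.21. Squamous 9 is the tumour with the different title format and the widest spread of values. Cd3g was 7.31 in Squamous 8, with the next tumour at 5.49.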

How the results depend on the processing

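No paired analysis was possible because the sides were taken from 1 group of tumours and share no replicate number. The counts of genes lower and higher by at least 1, 556 and 109, were 531 and 116 after quantile normalization, 510 and 132 after subtracting array medians, 496 and 99 with the mean of a gene's probe sets, and 828 and 161 over probe sets. They were 346 and 68 among genes above the median level, which tests fewer genes, 883 and 449 at a minimum difference of 0.5, and 113 and 9 at 2. With the 2 tumours of the shared title number averaged the higher count was 167. Leaving out each tumour in turn gave 524 to 770 lower and 88 to 193 higher genes; the highest counts came without Squamous 6. The 3 tumours lowest in the mean of all Vim probe sets, in Fn1 or in Sparc were the same 3, so their counts were necessarily the same. That Vim mean includes the probe set of the rule. Subtracting array medians moved the median difference of all genes from 0.07 to 0.12. Apart from leaving out a tumour, 4 list medians moved by more than the spread. Among genes above the median level, those of 3 T and NK, 3 B and plasma and 13 Wnt genes were −1.94, −2.04 and −0.73. The TGF-beta median was −0.99 as a difference of group medians. With each tumour left out, the medians ran from −2.11 to −1.34 for matrix glycoproteins, −2.10 to −1.43 for fibroblast markers, −1.94 to −1.34 for metalloproteinases and −0.98 to −0.68 for TGF-beta genes. They ran from −2.41 to −1.64 for collagens, −1.63 to −1.43 for macrophage genes and 0.27 to 0.36 for epithelial junction genes, and those of proliferation (−0.39 to 0.09), cornified envelope (−0.62 to 0.41), hypoxia, nerve, ribosomal and housekeeping genes took both signs. Actb was the 1 non-overlapping named gene whose difference changed sign under an alternative, to 0.16 with the mean of its probe sets; the cause was not tested. Among overlapping genes, Krt5, Krt14 and Mki67 changed sign without Squamous 2, to 0.43, 0.19 and 0.17, and Krt5 and Krt14 did so as differences of group medians, to 0.31 and 0.23. Arrays can compress differences of genes near background, where many lymphocyte genes lay, and whether this occurred here was not tested.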
